A study of Homo sapiens with 23 samples.

Results

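Laminins were followed as a family of 8 genes, LAMA1, LAMA3, LAMA4, LAMA5, LAMB1, LAMB2, LAMB3 and LAMC1, chosen by symbol among the 61217 genes listed in each of 6 comparisons. Each comparison set cells given a microRNA mimic against cells of the same line given a negative control, and asked how the mimic changed polyA RNA. The lines were C-33A, labelled an HPV-negative cervical squamous cell carcinoma, and CaSki, labelled a metastatic and HPV-positive one; both are established cell lines. In C-33A, 2 samples received miR-124-3p and 3 samples each received miR-23b-3p, miR-218-5p or negative control n#1. In CaSki, each of these agents was given to 3 samples, and the dose was 100 nM throughout. The 3 comparisons of a line share its control samples.

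A laminin is a cross-shaped trimer of 1 alpha, 1 beta and 1 gamma chain, secreted into the basement membrane, the sheet of matrix under epithelia. Cells hold on to it through integrins and dystroglycan. In squamous epithelium, LAMA3 and LAMB3 belong to the trimer that anchors basal keratinocytes at hemidesmosomes, while trimers of LAMA5 with LAMC1 occur in many basement membranes. LAMB3 is a published target of miR-218 in cervical cancer cells, and LAMC1 is one of miR-124 in the chick neural tube. A microRNA lowers a transcript mainly by pairing of its seed, bases 2 to 8, with the 3' untranslated region (UTR).

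The mature microRNAs are shown from RefSeq (GRCh38.p14), 5′ to 3′, with the seed in capitals, because the sites below are matched to it.
miR-23b-3p: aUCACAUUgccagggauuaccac
miR-218-5p: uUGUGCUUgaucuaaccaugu
The mature form of miR-124-3p is named only. The letters searched were AATGTGA for miR-23b-3p and AAGCACA for miR-218-5p, on the sense strand of 3' UTRs, taking for each gene its longest protein coding transcript (GENCODE release 29, GRCh38).

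Of the 8 chains, 0 held a match to miR-23b-3p, even to bases 2 to 7 alone, and 3 held a match to miR-218-5p. LAMB3 held an 8mer, a match to the whole seed followed by an A, at chr1:209614950-209614957 on the minus strand. LAMC1 held a match to the whole seed without that A, a 7mer-m8 site, at chr1:183143088-183143094 on the plus strand. Both are printed because the miR-218-5p results turn on them, with the matched letters in capitals, the A of the 8mer included.
LAMB3: cactggggaggaatcctggaccAAGCACAA
LAMC1: cctacgttactgtacagtggcatAAGCACA
LAMA4 had 2 matches of 6 letters only. The LAMB3 site lies 314 nt into a 3' UTR of 396 nt, and that of LAMC1 298 nt into one of 2802 nt. An 8mer for miR-218-5p was present in 4.42% of 18976 genes with a 3' UTR of any length, and an 8mer or 7mer-m8 in 13.7%. An 8mer or 7mer-m8 for miR-23b-3p was present in 18.1% of these genes. The 3' UTRs of the 8 chains spanned 112 to 2802 nt, with all but that of LAMC1 at 677 nt or less.

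The lines differed in which laminin chains they transcribed. Levels are the authors' average log2 counts scaled to library size (log2 CPM) over the libraries of a table, given as the median of the 3 tables of a line; values of single samples are not analysed here. LAMC1, the gamma chain of most trimers, stood at 7.01 log2 CPM in C-33A (6.80 to 7.04 over tables) and at 8.50 log2 CPM in CaSki (8.32 to 8.57). LAMB1, a widely expressed beta chain, stood at 2.31 log2 CPM in C-33A and at 7.95 log2 CPM in CaSki, where it was 50.1-fold higher. LAMB2, the beta chain of synaptic and kidney basement membranes, was 5.19-fold higher in C-33A, at 5.65 log2 CPM in C-33A and 3.28 log2 CPM in CaSki. LAMA5 stood at 4.53 log2 CPM in C-33A and at 6.37 log2 CPM in CaSki. The 3 tables of a line share controls, so a range over tables does not measure the spread of samples. Tables were normalized separately, and no test over samples was possible.

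LAMA3 and LAMB3 of the hemidesmosome laminin were abundant in CaSki and at or near the floor in C-33A. LAMA3 stood at -1.92 log2 CPM in C-33A and at 7.69 log2 CPM in CaSki. LAMB3 stood at -3.48 log2 CPM in C-33A and at 7.29 log2 CPM in CaSki. In the C-33A table of miR-23b-3p, LAMB3 was among 22299 genes listed at the table minimum of -3.60, all with a log2 fold change of 0; such genes had no read in either group. LAMA1, the alpha chain of the embryonic trimer, stood at 0.72 log2 CPM in C-33A, and in the CaSki table of miR-218-5p it was at the minimum of -4.13. LAMA4, typical of vessels and muscle, stood at -2.05 log2 CPM in C-33A and at -2.51 log2 CPM in CaSki. No fold change is read for LAMB3 in C-33A or LAMA1 in CaSki, whose controls held no read. In a bulk sample fewer cells with a transcript and less transcript per cell cannot be told apart.

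Per kilobase of the longest transcript, the order of levels in C-33A was LAMC1 (4.03 log2 CPM per kb), LAMB2 (3.15), LAMA5 (1.01), LAMB1 (-0.22) and LAMA1 (-2.56), with LAMA4 at -4.76, LAMA3 at -5.33 and LAMB3 at -5.58. In CaSki it was LAMC1 (5.52 log2 CPM per kb), LAMB1 (5.43), LAMB3 (5.19), LAMA3 (4.27), LAMA5 (2.86) and LAMB2 (0.78), with LAMA4 at -5.22 and LAMA1 at -7.21. In CaSki the per-kilobase levels of LAMC1 (5.34 to 5.59 over tables) and LAMB1 (5.40 to 5.43) overlapped, and those of the other neighbours from LAMB1 to LAMB2 did not. These ranges do not measure the spread of samples, so the order was not tested. LAMA3 also has shorter transcripts, for which its level per kilobase would be higher.

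**Figure D1:**
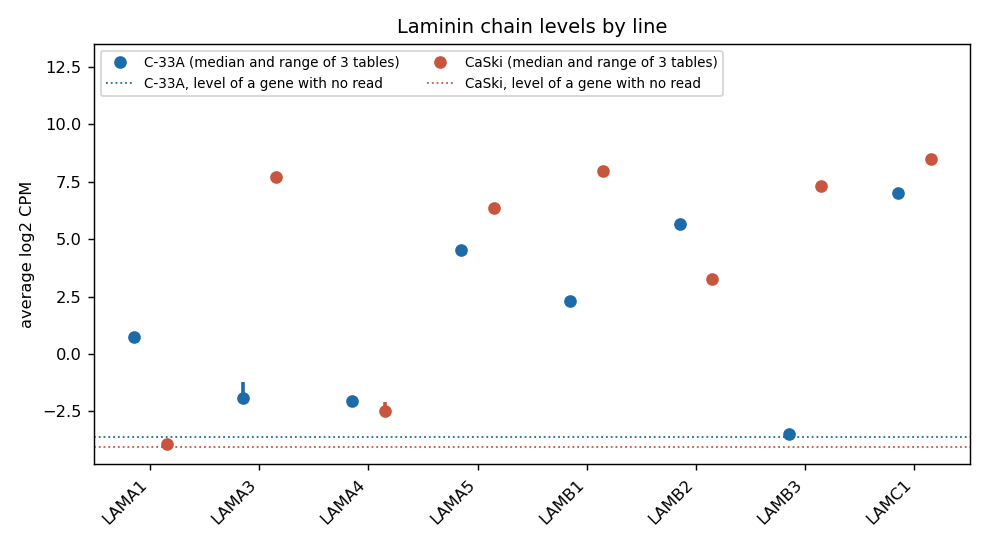
Average log2 CPM (vertical axis) of the 8 laminin chains (horizontal axis) in C-33A (blue, left of each pair) and CaSki (red); points are medians and bars ranges of the 3 tables of a line, and dotted lines the level of a gene with no read. LAMA3 and LAMB3 had medians of 7.29 or more in CaSki and of -1.92 or less in C-33A, while LAMB2 was higher in C-33A.

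Markers of the labelled cell type also differed between the lines. Of 6 squamous markers (KRT5, KRT6A, KRT14, TP63, DSG3, SFN), 0 reached 0 log2 CPM in C-33A, where the highest median was -1.56, and 6 did in CaSki, where the lowest was 6.53. Of 5 epithelial markers (KRT8, KRT18, KRT19, EPCAM, CDH1), 2 reached 0 in C-33A, the highest at 0.82, and 5 in CaSki, the lowest at 5.76. The squamous label of C-33A is therefore not borne out by these markers. Of 5 fibroblast markers, 2 reached 0 in C-33A, COL3A1 at 7.19 and COL1A2 at 2.94 log2 CPM, while DCN was at -2.29, LUM at -1.90 and COL1A1 at -2.02; in CaSki 1 of 5 did, COL1A1 at 1.77. The log2 of the summed fibroblast level was 7.20 to 7.30 over the C-33A tables and 1.82 to just under 2 over the CaSki tables. Endothelial markers reached at most 0.47 (CDH5, in CaSki) and leukocyte markers at most 2.52 (PTPRC, in C-33A). The part of these markers in the laminin levels was not tested.

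Across the 6 comparisons, 2 of 48 laminin values passed a deposited false discovery rate (FDR) under 0.05, LAMC1 and LAMB1 in CaSki after miR-23b-3p, and both rose. Genes whose average in a table was at least 0 log2 CPM are called measured; this held for 33 of the 48 values, from 5 chains in C-33A and 6 in CaSki. In CaSki after miR-23b-3p, 2 of 8 chains rose and 0 fell, where 1.41% of all listed genes rose and 0.995% fell; among 15476 measured genes these shares were 5.25% and 3.84%. All 6 measured chains lay above 0 there, with a median log2 fold change of 0.32, while 50.1% of all measured genes lay above 0, with a median of 0.00. An unadjusted p under 0.05 was held by 4 of the chains and by 29.7% of measured genes. The measured chains LAMA2 and LAMC3, outside the 8, lay below 0 in this comparison, at -0.14 and -0.27. The bins of transcript length that hold the 6 chains, described below, had medians of 0.07 to 0.27 there.

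In the other 5 comparisons 0 of 8 chains were called in the deposited edgeR tables. In C-33A, 0.031% of listed genes rose and 0.131% fell after miR-124-3p, which is 0.116% and 0.517% of measured genes. The shares were 0.0163% and 0.031% after miR-23b-3p in C-33A (0.0657% and 0.125% of measured genes), and 0.00653% and 0.0686% after miR-218-5p (0.026% and 0.273%). In CaSki, 0.103% of listed genes rose and 0.203% fell after miR-124-3p (0.4% and 0.801% of measured genes), and 0.00327% rose and 0.0212% fell after miR-218-5p (0.013% and 0.0848%). Chains with an unadjusted p under 0.05 numbered 3 in C-33A after miR-124-3p (LAMC1, LAMA5 and LAMB2), where 9.57% of measured genes held one, 1 in CaSki after miR-218-5p (LAMC1), where 6.85% did, and 0 in the others. The median of measured chains was -0.15 in C-33A after miR-124-3p, 0.03 after miR-23b-3p and -0.09 after miR-218-5p. In CaSki it was 0.20 after miR-124-3p and 0.04 after miR-218-5p, and the median of all measured genes lay between -0.04 and 0.01 in these 5 comparisons.

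LAMC1, the gamma chain, gave the larger of both called changes; standard errors (SE) here are recovered from the deposited log2 fold change and p-value. The authors' deposited table has LAMC1 up by 0.61 on the log2 scale after miR-23b-3p in CaSki (SE 0.122), with an adjusted p of 0.000224. This is a 1.53-fold level in CaSki (95% interval 1.29 to 1.80). The call was lost when the median of genes of like transcript length was subtracted, which left LAMC1 at 0.34 (Benjamini-Hochberg adjusted p = 0.0636). For C-33A the authors' deposited table has LAMC1 at 0.03 after the same mimic (SE 0.166, 95% interval -0.29 to 0.36).

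After miR-124-3p, LAMC1 stood at -0.64 in C-33A (SE 0.175, 95% interval -0.98 to -0.30) and at -0.08 in CaSki (SE 0.136, 95% interval -0.35 to 0.18), per the authors' deposited tables. The C-33A value had an unadjusted p of 0.000258, rank 140 among the 61217 p-values, and a deposited adjusted p of 0.112. With the Benjamini-Hochberg adjustment limited to measured genes its adjusted p was 0.0286, so this call depends on the filter. After miR-218-5p, for which LAMC1 carries the 7mer-m8 site shown above, the authors' deposited tables have LAMC1 at 0.05 in C-33A (SE 0.161) and at 0.31 in CaSki (SE 0.140, 95% interval 0.03 to 0.58). Neither passed (deposited adjusted p = 1 in both lines), and neither lay below 0. With the median of genes of like transcript length subtracted, the CaSki value after miR-218-5p was 0.19 (Benjamini-Hochberg adjusted p = 0.869).

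Among the beta chains, LAMB1 rose once, and LAMB2 and LAMB3 passed in no comparison. LAMB1 rose by 0.43 after miR-23b-3p in CaSki, with an SE of 0.112 and an adjusted p of 0.0105 in the authors' deposited table. This is a 1.35-fold level in CaSki (95% interval 1.16 to 1.57). This call too was lost with the length median subtracted, at 0.32 (Benjamini-Hochberg adjusted p = 0.0564). For C-33A, where its level was far lower, the authors' deposited table has LAMB1 at -0.40 after that mimic (SE 0.278, 95% interval -0.94 to 0.15). In the authors' deposited tables the other C-33A values of LAMB1 were -0.15 (miR-124-3p) and -0.43 (miR-218-5p), and its other CaSki values were 0.22 (miR-124-3p) and 0.21 (miR-218-5p). Within a line these values rest on shared controls, and none of the 4 passed.

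LAMB3 could be followed in CaSki only. After miR-218-5p the authors' deposited table has LAMB3 at -0.06 (SE 0.120), with an adjusted p of 1. This is a 0.958-fold level with a 95% interval of 0.815 to 1.13. After miR-124-3p and miR-23b-3p LAMB3 stood at 0.15 (SE 0.125) and 0.03 (SE 0.116) in the authors' deposited tables, and all 3 intervals include 0. LAMB3 was placed among the 535 genes, itself included, that hold an 8mer for miR-218-5p and average at least 1 log2 CPM in CaSki. Their median log2 fold change after miR-218-5p was -0.06, with quartiles of -0.22 and 0.09, beside 0.02 in 10588 genes without an 8mer. Of the 535 genes 6 (1.12%) fell at a deposited FDR under 0.05, beside 7 of the 10588 genes without an 8mer, and 48.4% of the 535 had a lower value than LAMB3. In C-33A the median of 505 such genes was -0.17, beside -0.03 in genes without an 8mer, but LAMB3 gave no readable value there.

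LAMB2 ranged from 0.02 (miR-218-5p) to 0.43 (miR-124-3p, SE 0.180, unadjusted p = 0.0168) in C-33A and from 0.01 (miR-218-5p) to 0.24 (miR-124-3p, SE 0.206) in CaSki, per the authors' deposited tables. The pseudogene LAMB2P1 may share reads with LAMB2, so LAMB2 is uncertain to that extent. LAMB2P1 stood at 0.53 log2 CPM in C-33A and at -1.45 log2 CPM in CaSki.

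No alpha chain passed a deposited FDR under 0.05. LAMA5, the alpha chain of many adult epithelia, stood at 0.60 after miR-124-3p in C-33A (SE 0.201, unadjusted p = 0.00285), with an adjusted p of 0.566 in the authors' deposited table. In CaSki the authors' deposited table has LAMA5 at 0.18 after that mimic (SE 0.124). After miR-23b-3p LAMA5 stood at 0.25 in C-33A (SE 0.195) and at 0.32 in CaSki (SE 0.150, adjusted p 0.415), per the authors' deposited tables. After miR-218-5p the authors' deposited tables have LAMA5 at -0.09 in C-33A (SE 0.186) and at -0.02 in CaSki (SE 0.120).

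LAMA3, the alpha chain of the hemidesmosome trimer, could be followed in CaSki. It stood at 0.32 after miR-23b-3p (SE 0.109, unadjusted p = 0.0038) in the authors' deposited table, with an adjusted p of 0.107. With the Benjamini-Hochberg adjustment limited to measured genes the adjusted p of LAMA3 was 0.0292, while with the length median subtracted LAMA3 was at 0.05 (adjusted p = 0.834). The other CaSki values of LAMA3 were 0.26 after miR-124-3p (SE 0.131) and 0.06 after miR-218-5p (SE 0.125) in the authors' deposited tables. LAMA1 in C-33A lay between -0.57 and -0.21 in the 3 comparisons of the authors' deposited tables, with SEs of 0.343 to 0.426. LAMA4 was under -2 log2 CPM in every table, with SEs of 0.873 to 1.14, so that changes of the size seen in LAMC1 were not detectable.

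**Figure D2:**
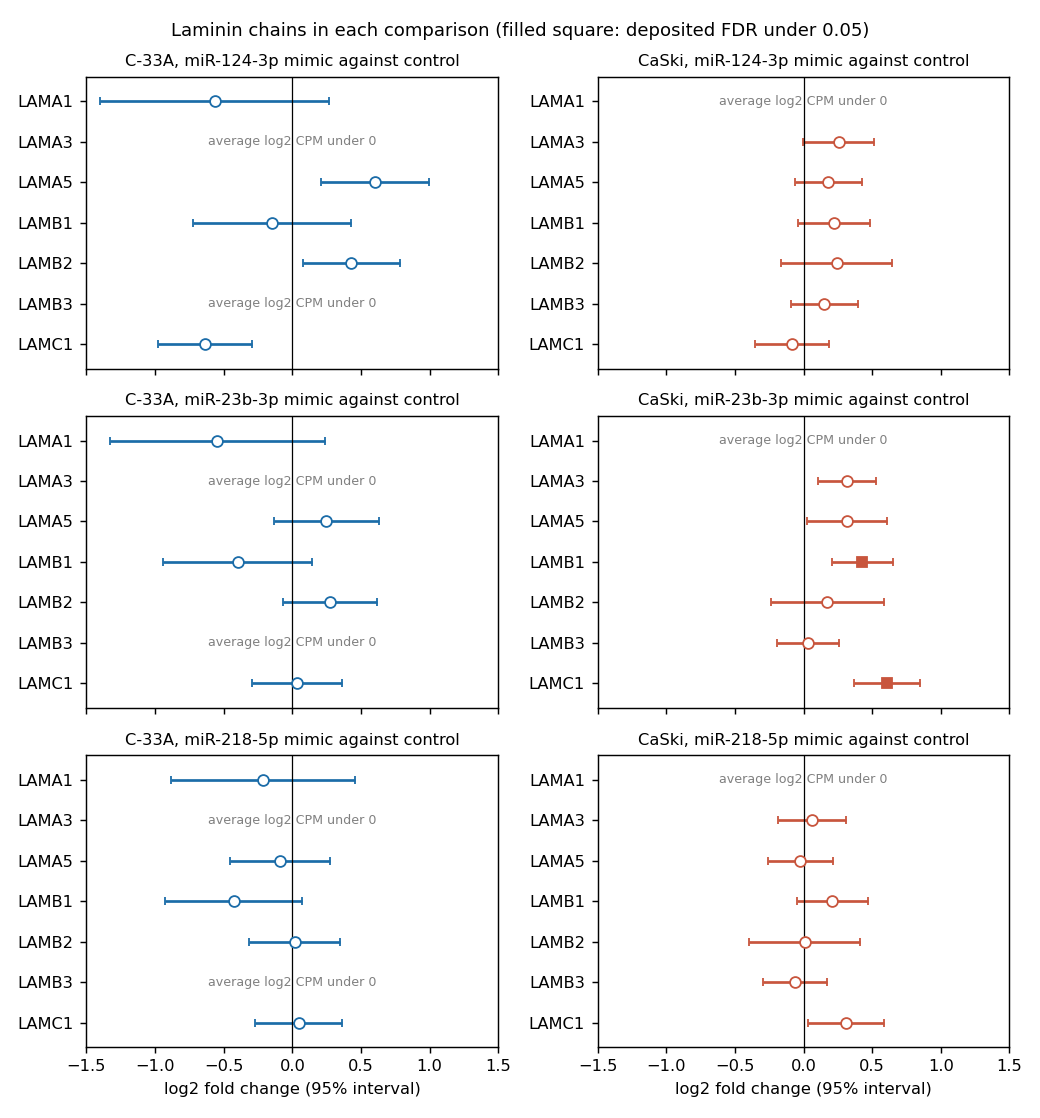
Log2 fold change of the mimic over the control (horizontal axis) with its 95% interval for 7 laminin chains in C-33A (left, blue) and CaSki (right, red), 1 panel per comparison; filled squares passed a deposited FDR under 0.05 and chains averaging under 0 log2 CPM are named without a value. LAMC1 (0.61) and LAMB1 (0.43) in CaSki after miR-23b-3p are the filled squares, and LAMC1 after miR-124-3p lies at -0.64 in C-33A.

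Transcript length moved with the fold changes, most in CaSki and, after miR-124-3p, in C-33A. Laminin transcripts are long, at 4305 to 11426 nt. Genes averaging at least 1 log2 CPM were ordered by length into 10 bins of equal size. After miR-23b-3p in CaSki, the median log2 fold change was -0.32 in the bin of shortest transcripts and 0.27 in the bin of longest ones, which begins at 7725 nt. LAMC1, LAMA3 and LAMA5 fall in bin 10, LAMB1 and LAMB2 in bin 8 (median 0.11) and LAMB3 in bin 7 (median 0.07). These are the medians subtracted above for LAMC1, LAMB1 and LAMA3 after miR-23b-3p. LAMA5 was at 0.05 with its own subtracted. LAMC1, at 7889 nt, lies near the lower edge of bin 10, and the median of bin 9 was 0.18. The amount subtracted from LAMC1 therefore depends on where the bins are cut. In C-33A the median ran from 0.05 in bin 1 to -0.02 in bin 10 after miR-23b-3p, and from -0.08 to -0.003 after miR-218-5p. In C-33A after miR-124-3p it ran from -0.16 in bin 1 to 0.07 in bin 10. LAMC1 was at -0.70 there with the bin 10 median subtracted (Benjamini-Hochberg adjusted p = 0.0111).

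**Figure D3:**
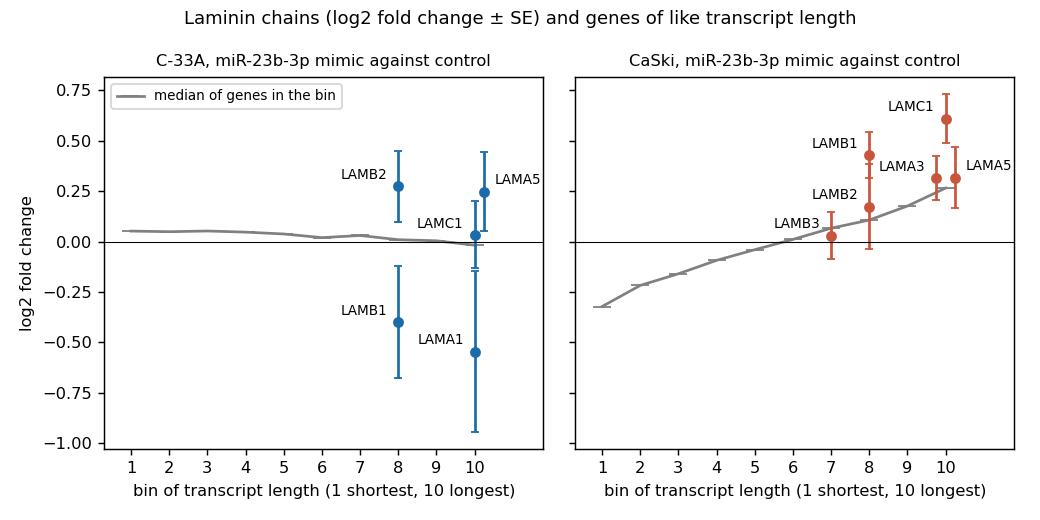
Log2 fold change after miR-23b-3p (vertical axis) of measured laminin chains (points, bars ± SE) by bin of transcript length (horizontal axis, 1 shortest and 10 longest), with the median of all genes in each bin (grey line), in C-33A (left) and CaSki (right). In CaSki the grey line runs from -0.32 to 0.27, LAMA3 and LAMA5 lie 0.05 above it, and LAMC1 and LAMB1 lie 0.34 and 0.32 above it.

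The lines were compared for the 4 chains measured in both, as C-33A minus CaSki, with a normal test adjusted by Benjamini-Hochberg over all genes measured in both lines. LAMC1 differed by -0.58 after miR-23b-3p (SE 0.206, 95% interval -0.98 to -0.17), with an adjusted p of 0.112. After miR-124-3p LAMC1 differed by -0.56 (SE 0.222, 95% interval -0.99 to -0.12, unadjusted p = 0.0122, adjusted p = 1.00). LAMB1 differed by -0.83 after miR-23b-3p (SE 0.299, 95% interval -1.41 to -0.24), with an adjusted p of 0.118. These differences are of values without the length medians subtracted. With them subtracted, LAMC1 after miR-23b-3p stood at 0.05 in C-33A and 0.34 in CaSki, and LAMB1 at -0.41 in C-33A and 0.32 in CaSki. The lines were not compared on the subtracted values. After miR-218-5p LAMB1 differed by -0.64 (SE 0.287, unadjusted p = 0.0264, adjusted p = 1.00). The intervals of LAMA5 and LAMB2 included 0 after every mimic. So 0 of 12 differences passed by the normal test, and 4 had an unadjusted p under 0.05. Of all genes compared, 0% passed after miR-124-3p and miR-218-5p and 1.7% after miR-23b-3p. An unadjusted p under 0.05 was held by 2.51% of genes after miR-124-3p, 15.6% after miR-23b-3p and 1.56% after miR-218-5p.

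Among the receptors that bind laminin, ITGB1 and CD151 fell in both lines after miR-124-3p. ITGB1, the beta subunit of most laminin-binding integrins, fell by 1.24 in C-33A (SE 0.173, adjusted p 1.34e-08) and by 1.32 in CaSki (SE 0.199, adjusted p 4.32e-07), per the authors' deposited tables. CD151, a tetraspanin that partners these integrins, fell by 0.71 in C-33A (adjusted p 0.0266) and by 0.99 in CaSki (adjusted p 9.09e-05), per the authors' deposited tables. ITGB4, the hemidesmosome integrin subunit, rose by 0.68 in CaSki, with an SE of 0.152 and an adjusted p of 0.00711 in the authors' deposited table. Of 14 receptor genes, 2 fell and 0 rose in C-33A (14 measured, median 0.05), and 2 fell and 1 rose in CaSki (12 measured, median 0.06). Of all measured genes, 0.517% fell and 0.116% rose in C-33A (median -0.0044), and 0.801% fell and 0.4% rose in CaSki (median -0.01).

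After miR-23b-3p, 0 of 14 receptors were called in C-33A, and 1 rose and 1 fell of 12 measured ones in CaSki (median 0.14). There 5.25% of all measured genes rose and 3.84% fell (median 0.00), so these counts are near the background. DAG1, the dystroglycan that binds laminin alpha chains, rose by 0.82, with an SE of 0.152 and an adjusted p of 4.41e-05 in the authors' deposited table for CaSki. CD151 fell by 0.49 there, with an adjusted p of 0.0021 in the authors' deposited table. With the median of their length bins subtracted, DAG1 was at 0.71 and CD151 at -0.28. Without a call, DAG1 also stood at 0.58 after miR-124-3p and 0.44 after miR-218-5p in CaSki. After miR-218-5p, 0 of 14 measured receptors in C-33A and 0 of 12 in CaSki were called.

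Other basement membrane genes gave 3 calls. NID1, nidogen, which links the laminin gamma chain encoded by LAMC1 to collagen IV, fell by 0.96 after miR-124-3p in C-33A, with an SE of 0.188 and an adjusted p of 0.000655 in the authors' deposited table. In CaSki NID1 averaged -1.01 log2 CPM in the comparison of that mimic and so was not measured. COL4A1, a collagen IV chain, fell by 1.06 after miR-124-3p in CaSki, with an SE of 0.204 and an adjusted p of 0.000521 in the authors' deposited table. For C-33A the authors' deposited table has COL4A1 at -0.98 after the same mimic (SE 0.294, adjusted p 0.269), without a call. HSPG2, the proteoglycan perlecan, rose by 0.79 after miR-23b-3p in CaSki, with an SE of 0.204 and an adjusted p of 0.00976 in the authors' deposited table; it was at 0.52 with the median of its length bin subtracted. Of the 21 genes in this list, 13 to 14 were measured in C-33A and 14 to 15 in CaSki. The shares of all measured genes called in the same direction were 0.517% beside NID1 (1 of 14), 0.801% beside COL4A1 (1 of 14) and 5.25% beside HSPG2 (1 of 15). The hemidesmosome plaque genes COL17A1, DST and PLEC had 0 calls in any comparison, as did the laminin chains LAMA2, LAMB4 and LAMC3.

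**Figure D4:**
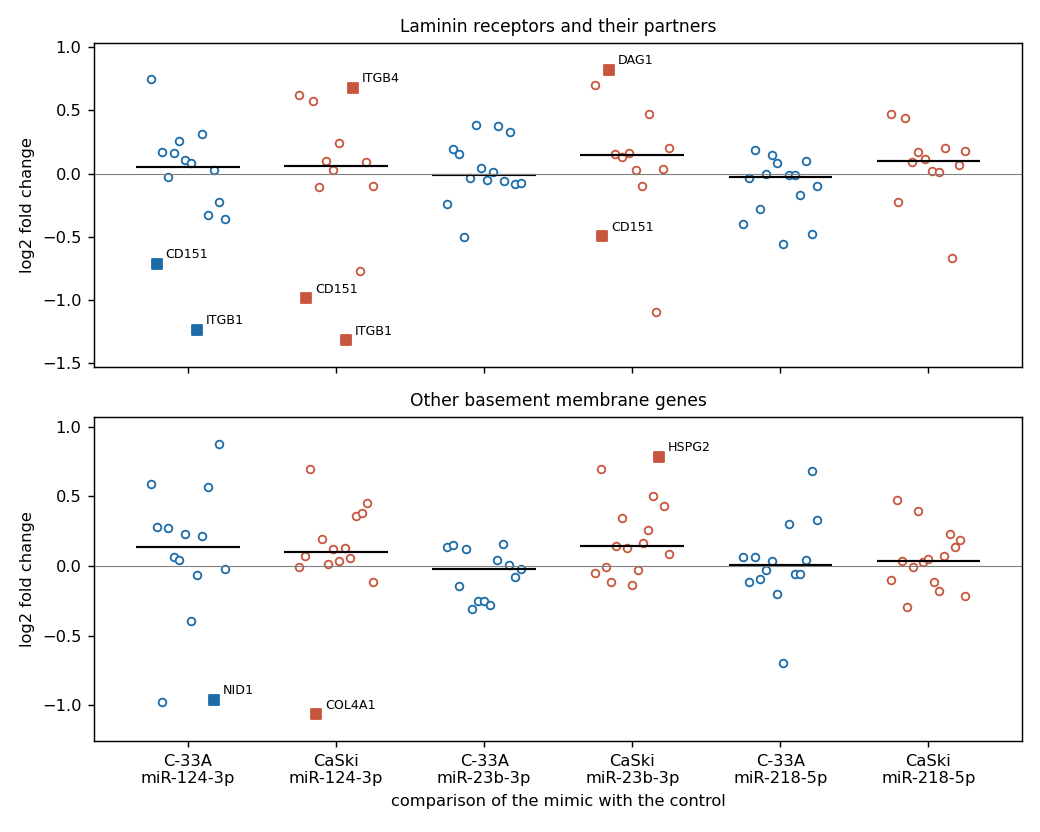
Log2 fold change (vertical axis) of measured laminin receptors (top) and other basement membrane genes (bottom) in each comparison (horizontal axis), C-33A in blue and CaSki in red; filled squares passed a deposited FDR under 0.05 and black lines are medians. ITGB1 lies at -1.24 in C-33A and -1.32 in CaSki after miR-124-3p, with CD151 the other fall in both lines.

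The genes nearest to both called chains over the 6 log2 fold changes were sought among 9679 other protein coding genes averaging at least 1 log2 CPM in all tables, by Euclidean distance. For LAMC1 these were FNDC3B (distance 0.168), RBMS2 (0.191) and DENND6A (0.227). In the authors' deposited tables FNDC3B, RBMS2 and DENND6A stood at -0.59, -0.61 and -0.49 after miR-124-3p in C-33A and at 0.74, 0.61 and 0.56 after miR-23b-3p in CaSki. For LAMB1 they were CDC73 (distance 0.132), USP53 (0.215) and MITF (0.218). The 6 values of a gene rest on 2 groups of controls, so they are not independent.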

How the data were processed

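PolyA RNA of 23 samples in 8 groups was sequenced. The submitters' processing notes name STAR 2.7.10b, FastQC 0.73, edgeR 3.36.0 and featureCounts 2.0.3, with GRCh38 (hg38); an annotation and a strand setting are not stated there. The authors deposited 1 table per comparison, whose columns are, per the file headers, the log2 fold change, average log2 CPM, F (a score), p-value and FDR. Recomputing a Benjamini-Hochberg adjustment over all 61217 genes gave the deposited FDR, so low genes were not filtered out. Sample values are not analysed here, so depth and counting error are unknown and no model was refitted. Whether replicates were separate cultures is not stated. At most, the p-values measure how far these samples vary, which can be technical. F and p imply median denominator degrees of freedom of 25.7 to 38.2 in CaSki and 1.84e+05 or more in C-33A, so the C-33A tests treat the spread as almost exactly known. That is more than the 61217 genes listed, as when a spread is pooled over genes. In C-33A after miR-23b-3p the SEs of the abundant genes ITGB1, DST and RPSA were 0.165, 0.165 and 0.166, beside 0.166 for LAMC1. The C-33A p-values, SEs and intervals therefore do not measure how each single gene varied among its samples.

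A call is a deposited FDR under 0.05. An SE is the log2 fold change over the normal quantile of p. Lines were compared with a normal test, adjusted over genes averaging at least 0 log2 CPM in both. This test was also run on simulated data. These were drawn from the normal model and SEs that it assumes, so they cannot show how it behaves on the real values. Lengths and 3' UTRs came from GENCODE release 29, matched by symbol for 19575 genes. The 8 chains and 7 lists (78 genes, all listed) were chosen with earlier results of these data known. Named genes were all 8 chains, up to 4 called members per list and comparison by lowest p, and the 3 nearest genes of the 2 chains called most often. Alternatives changed the threshold, the genes adjusted over, centring, length and the SE. Python 3.11.15, pandas 2.3.3 and SciPy 1.17.1 were used. 1 gene of the lists is not reported here.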

Additional observations from a re-analysis of the deposited data

How the results depend on the processing

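The 2 calls in CaSki after miR-23b-3p became 1 at an FDR under 0.01 and 0 with the median of the length bin subtracted. The 0 falls in C-33A after miR-124-3p became 1 (LAMC1) with adjustment over genes averaging at least 0 or at least 2 log2 CPM (1 each), and 1 with the length median subtracted. The length setting also adjusts over fewer genes, those with a length. Counts were otherwise within 1.5 times of the reported ones under the alternatives run, centring and the SE from F included. Uncalled values changed sign with the length median subtracted for LAMB3 after miR-23b-3p (-0.036), LAMA3 after miR-218-5p (-0.057) and LAMB2 after miR-218-5p (-0.052), all in CaSki, and with centring for LAMB2 in CaSki after miR-218-5p (-0.0045). The cause was not tested. No paired analysis was possible because the tables hold no values per sample, and leaving out each replicate was not run for the same reason.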

Other observations

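Enzymes that build matriglycan, the sugar through which dystroglycan binds laminin, gave calls after miR-23b-3p. B4GAT1, which primes this sugar, fell by 0.99 in C-33A (SE 0.184, adjusted p = 0.000534) and by 0.97 in CaSki (SE 0.191, adjusted p = 0.000154) in the authors' deposited tables. In CaSki DPM3, a subunit of the mannose donor synthase, fell by 0.74 and the kinase POMK rose by 0.52 in the authors' deposited table. With the median of their length bins subtracted, these CaSki values were -0.81 for B4GAT1, -0.42 for DPM3 and 0.74 for POMK. The list thus had 1 of 16 measured members called in C-33A and 3 of 16 in CaSki, with medians of 0.06 and -0.12, beside 0.01 and 0.00 over all measured genes. Of all measured genes, 0.0657% rose and 0.125% fell in C-33A, and 5.25% rose and 3.84% fell in CaSki. After miR-124-3p in CaSki, B4GAT1 stood at -0.34, DPM3 at -0.57 and POMK at 0.34, without a call. After miR-218-5p they stood at 0.17, -0.41 and 0.53 there, also without a call. NTN1, the 1 called of 4 measured netrins with laminin-type domains, rose by 0.69 in CaSki after miR-23b-3p. Its SE was 0.193 and its adjusted p 0.0213 in the authors' deposited table, and it was at 0.51 with the median of its length bin subtracted. Without a call, NTN1 stood at nearly the same values in CaSki after miR-124-3p (0.64) and miR-218-5p (0.65). In C-33A it stood at 0.57 after miR-124-3p, 0.55 after miR-23b-3p and 0.66 after miR-218-5p, also without a call. The rise of NTN1 was thus not particular to miR-23b-3p, and the comparisons of a line share controls. Of 13 enzymes that process laminin or its matrix, 0 were called in any comparison in the deposited edgeR tables, with 3 to 4 measured in C-33A and 8 in CaSki.

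The antisense genes LAMC1-AS1 and LAMA5-AS1 were listed at -0.09 and -1.17 log2 CPM in C-33A and at 1.17 and 0.77 log2 CPM in CaSki. Without a stated strand setting, their reads and those of LAMC1 and LAMA5 cannot be told apart where they overlap.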
